A study of Mus musculus with 9 samples.

Results

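The CIDE genes of the mouse, Cidea, Cideb and Cidec, encode proteins of lipid droplets. They were found by their symbols in a table of transcript levels from 3 fat depots, in which each of the 3 stands on 1 line among 22527 gene symbols. The 9 libraries measured RNA bound to ribosomes, with 3 from brown fat (BAT), 3 from white fat of the groin (inguinal, iWAT) and 3 from white fat beside the epididymis (eWAT). The mice of all 3 groups are given as 8 weeks old, C57BL/6 and wild type, with no treatment named. The RNA was obtained by pulling down ribosomes with an antibody to green fluorescent protein (GFP) and depleting ribosomal RNA before sequencing, so a value measures RNA on tagged ribosomes rather than total RNA. The series title speaks of adipocytes, but the sample labels used here name neither the GFP-tagged protein nor the promoter that drove it. They also do not say whether the 3 libraries of a depot came from separate or pooled animals, so the p-values measure only the spread between these libraries, which may be technical.

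A fat cell stores triglyceride in lipid droplets, each coated by proteins that control how the droplet grows and how it is broken down. CIDE proteins gather where droplets touch and let neutral lipid pass from the smaller droplet to the larger, which makes droplets fewer and bigger. Cidea is known as a protein of brown and of thermogenic white fat, Cidec (also called Fsp27) is the member known for the large single droplet of white adipocytes, and Cideb is best known from liver, where it acts in the loading of lipid onto very-low-density lipoprotein (VLDL).

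Values are FPKM (fragments scaled to transcript length and to the mapped reads of the library), a level per length, so levels may be compared between genes. Differences between depots are on the log2(FPKM + 1) scale from 1 limma model over all 9 libraries, two-sided, with p-values adjusted over the 10374 genes that reached 1 FPKM in 3 or more libraries; a gene is called at an adjusted p under 0.05. The 3 comparisons share libraries and are not independent of each other. Depth, estimated from the step of FPKM that 1 read makes, was 11090000 to 20750000 reads in BAT, 2920000 to 4660000 reads in iWAT and 4460000 to 16030000 reads in eWAT. The estimate for eWAT 1, the highest of its depot, is the least sharp, with other settings of the method giving 16130000 to 33000000 reads. All BAT libraries were deeper than all iWAT libraries, and depth and depot cannot be told apart in that comparison. One tissue field of the library titled BAT 3 reads inguinal white, yet Ucp1, the uncoupling protein that defines brown fat, was 3054 FPKM in it, beside 2626 and 2434 in BAT 1 and BAT 2 and at most 3.38 in the 6 white libraries, and it was kept in BAT. Library iWAT 1 stood nearer to the eWAT libraries (r of 0.945 to 0.963 over the tested genes) than to iWAT 2 and iWAT 3 (0.899 and 0.934). Over all tested genes the median difference was 0.23 for BAT minus iWAT, -0.02 for BAT minus eWAT and -0.18 for iWAT minus eWAT.

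Cidea was among the most abundant transcripts of brown fat and fell by orders of magnitude across the white depots. Its level was 4087, 4462 and 4672 FPKM in BAT 1, 2 and 3. In iWAT it was 103, 95.1 and 17.2 FPKM, and in eWAT 10.5, 5.76 and 4.01 FPKM. No library of one depot reached the range of another, and the order BAT, iWAT, eWAT held for every pair of libraries. Ranked among all genes of a library, Cidea stood at place 18 or 19 in BAT, between 721 and 2636 in iWAT and between 3639 and 6482 in eWAT. The depot means were 4407 ± 296, 71.7 ± 47.3 and 6.75 ± 3.35 FPKM (SD, n = 3 each), so that BAT held 61.4 times the iWAT mean and 653 times the eWAT mean, and iWAT 10.6 times the eWAT mean.

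**Figure D1:**
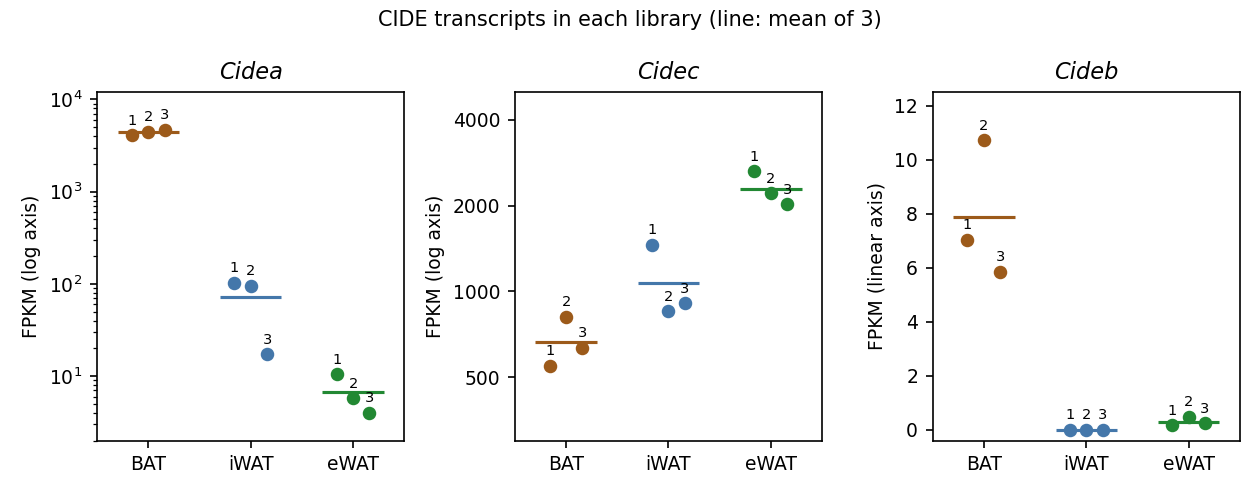
Level of Cidea, Cidec and Cideb in FPKM (log axis for Cidea and Cidec, linear for Cideb) in each of the 9 libraries, numbered by replicate, with a line at the mean of each depot. Cidea falls and Cidec rises from BAT over iWAT to eWAT, iWAT 3 lies well under the other iWAT libraries in Cidea, and Cideb is listed at 0 in iWAT.

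In the limma model Cidea was higher in BAT than in iWAT by 6.28 ± 0.58 (log2, SE; adjusted p = 3.12e-05) and than in eWAT by 9.24 ± 0.58 (adjusted p = 3.85e-06). Of all tested genes, 57.5% were called between BAT and iWAT, 34.5% as higher in BAT and 22.9% as higher in iWAT, and 33.7% were called between BAT and eWAT, 20.2% as higher in BAT and 13.5% as higher in eWAT. The balance of the latter calls turned in some settings: 2094 genes were higher in BAT and 1398 in eWAT, against 1918 and 2243 without eWAT 1 and 3098 and 3527 with array weights. Higher in eWAT were 824 genes without BAT 2, 806 without BAT 3, 873 without eWAT 2 and 840 without eWAT 3. A call between brown and white fat was therefore common in this table. Cidea was also higher in iWAT than in eWAT by 2.96 ± 0.58 (95% interval 1.67 to 4.25; adjusted p = 0.0358). Between the white depots calls were rare: 1.74% of tested genes, 0.231% as higher in iWAT and 1.5% as higher in eWAT. The count of white depot calls depends on iWAT 1 and on the weights: in place of 180 called genes, 3321 were called without iWAT 1 and 1970 with array weights. By median-ratio scaling 28.4% of the calls between the white depots were higher in iWAT and by quantile normalization 24.8%, against 13.3% without rescaling. The white depot call for Cidea was lost in 10 of 17 alternatives. Among them were leaving out any one of BAT 1, BAT 2, BAT 3, eWAT 1, eWAT 2, eWAT 3 or iWAT 2 (highest adjusted p = 0.146, without eWAT 3). The difference kept its sign, which only the rescalings could have turned, since the libraries of the depots do not overlap in Cidea.

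Cidea varied little among the BAT libraries and widely among those of iWAT. The highest BAT library was 1.14 times the lowest (coefficient of variation 6.72%), against 5.96 times in iWAT (66.0%) and 2.61 times in eWAT. At the estimated depth the iWAT values correspond to about 462, 319 and 48.6 reads, and the eWAT values to about 162, 24.8 and 17.8. The low iWAT value belonged to iWAT 3, the shallowest of the 9 libraries, but it was still well above a floor of a few reads.

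Markers of brown adipocytes were set beside Cidea in the same libraries. All 10 of the list were called higher in BAT than in either white depot, beside 34.5% of all tested genes against iWAT and 20.2% against eWAT. Dio2, Elovl3, Ebf2 and Slc27a2 were at most 0.931 FPKM in white fat. They entered the model only through their BAT values and had to differ. In iWAT, Cox8b, a muscle-type cytochrome oxidase subunit of brown fat, was 367, 319 and 180 FPKM, and Cox7a1, a further subunit of the same enzyme, 54.3, 30.2 and 18.5 FPKM. Kcnk3, a potassium channel of brown adipocytes, was 8.99, 6.22 and 5.32 FPKM. These 3 genes were lowest in iWAT 3, as Cidea was. Ucp1 was not: it was 2.24, 3.35 and 3.10 FPKM in the same libraries, and Fabp3, a fatty acid carrier, was highest in iWAT 3 at 7.62 FPKM. In all, 5 of the 10 brown markers were lowest in iWAT 3 and 4 were highest in iWAT 1, while Elovl3, an elongase of brown fat, was listed at 0 in all 3. Among the 5 were Ebf2 (0.456, 0.513 and 0.169 FPKM) and Slc27a2 (0.205, 0.136 and 0 FPKM), and Slc27a2 was also among the 4. At such low levels the order of the libraries is not resolved. Between iWAT and eWAT, 2 of the 10 were called, both higher in iWAT: Cox8b by 2.67 (adjusted p = 0.00125) and Kcnk3 by 1.55 (adjusted p = 0.0140). Some of these markers, Cox8b among them, are also muscle genes. Skeletal muscle markers summed to 1780 to 2491 FPKM in iWAT against 227 to 1278 in eWAT. The part of muscle RNA in the brown markers was not tested. In bulk RNA, fewer cells of a type and less RNA per cell cannot be told apart, here for Cidea and for these markers alike.

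**Figure D2:**
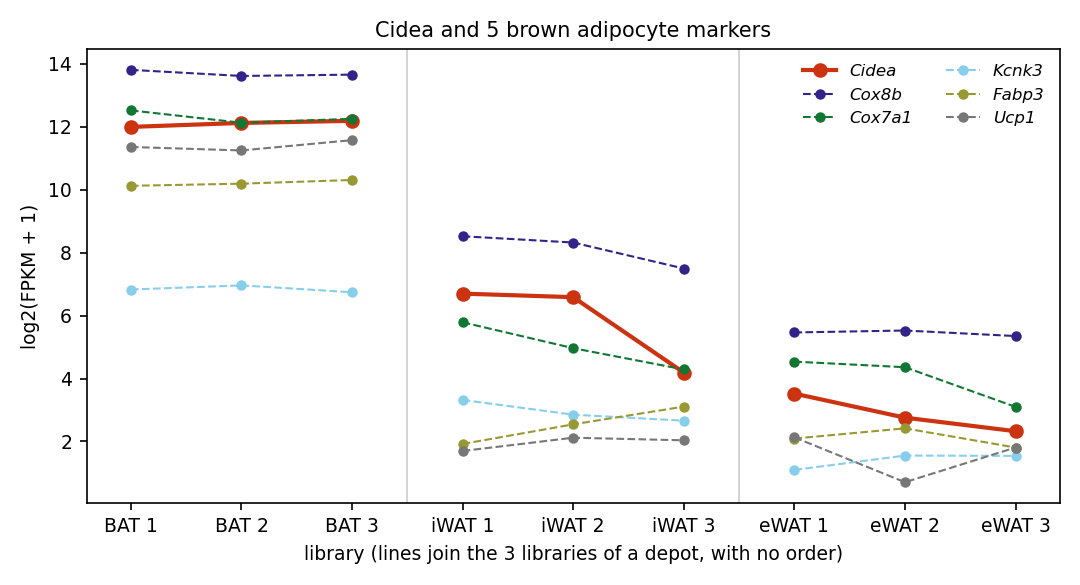
Level of Cidea and of 5 brown adipocyte markers in each library as log2(FPKM + 1), with lines joining the 3 libraries of a depot. Cidea and Cox8b are lowest in iWAT 3 among the iWAT libraries, whereas Fabp3 is highest there and Ucp1 stays low in all 6 white libraries.

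Markers of other cells were read beside Cidea, since Cidea is also known from mammary and sebaceous gland. Of 8 mammary and sebaceous markers, 5 (the milk protein genes Csn2, Csn3, Wap and Lalba, and Awat1, a wax synthase of sebaceous glands) were listed at 0 in all 9 libraries. Milk protein genes belong to lactation, so a 0 for them is no check on mammary cells outside it. The 8 summed to 0.489 to 1.27 FPKM in BAT, to 0.145 to 0.929 FPKM in iWAT and to 0.261 to 1.04 FPKM in eWAT. General epithelial markers did differ, summing to 18.7 to 39.4 FPKM in BAT, 131 to 362 in iWAT and 52.9 to 179 in eWAT. Skeletal muscle markers summed to 60.1 to 149, 1780 to 2491 and 227 to 1278 FPKM in the same order. The part of epithelial and muscle RNA in the differences of Cidea, Cidec and the brown markers was not tested. Adipocyte markers summed to 26161 to 35495 FPKM in BAT, 46716 to 85813 in iWAT and 75912 to 102154 in eWAT, with Fabp4, a fatty acid carrier, the largest part. Of the 6, 3 were called lower in BAT than in iWAT, beside 22.9% of all tested genes. Against eWAT 5 were called lower in BAT, beside 13.5%. Lep (leptin) was 1.45 to 4.13 FPKM in BAT against 24.6 to 178 in white fat.

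By the GENCODE annotation of mouse build NCBIM37 (mm9, the build named for the files), Cidea (ENSMUSG00000024526.8) lies on the forward strand of chromosome 18 at 67503218 to 67527448, with 1 transcript of 5 exons and 1164 bases. Its first 540 bases overlap a long intergenic RNA of the opposite strand, B430212C06Rik, listed at 5.01, 3.39 and 3.95 FPKM in BAT and at most 0.880 FPKM in white fat. Strand use in the counting is not given in the sources used here, so reads in the shared stretch cannot be assigned to one strand. The overlapping RNA came nearest to Cidea in eWAT 2, at 0.880 against 5.76 FPKM. No word of 30 bases in the transcripts of Cidea, Cideb or Cidec occurred in a protein-coding transcript of any other gene.

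Cidec took the opposite order. Its level was 549, 814 and 636 FPKM in the BAT libraries, 1460, 854 and 908 FPKM in those of iWAT, and 2639, 2212 and 2026 FPKM in those of eWAT. Each eWAT library was above each iWAT library, and each iWAT library above each BAT library, though BAT 2 and iWAT 2 nearly met. Cidec ranked between 20 and 28 among all genes of the eWAT libraries, where it made up 0.362% to 0.467% of the summed FPKM, between 44 and 75 in iWAT and between 145 and 240 in BAT. It was thus an abundant transcript in all 3 depots, brown fat included.

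The means for Cidec were 666 ± 135 FPKM in BAT, 1074 ± 335 FPKM in iWAT and 2293 ± 314 FPKM in eWAT (SD, n = 3 each), which is 1.61 times the BAT level in iWAT and 3.44 times in eWAT. Cidec fell by 1.79 ± 0.27 (log2, SE) from eWAT to BAT, with an adjusted p of 0.000637. BAT minus iWAT was -0.66 ± 0.27 (95% interval -1.26 to -0.06; adjusted p = 0.0566), and iWAT minus eWAT was -1.13 ± 0.27 (95% interval -1.73 to -0.53; adjusted p = 0.0630), neither of them called. The first was called after median-ratio scaling (-0.79, adjusted p = 0.0450), after quantile normalization (-1.35, adjusted p = 0.00151) and without iWAT 2 (-0.81, adjusted p = 0.0396), and shrank to -0.42 without iWAT 1. The second was called without iWAT 1 (-1.37, adjusted p = 0.00288) and with array weights (-1.17, adjusted p = 0.0131).

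For Cidea and Cidec the libraries of no depot overlapped those of another. Over all tested genes, 65.7% did not overlap between BAT and iWAT, 54.6% between BAT and eWAT and 22.7% between iWAT and eWAT. For 3 libraries against 3 an exact permutation test of a single gene cannot give a two-sided p under 0.1.

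The Cidec gene (ENSMUSG00000030278.5) lies on the reverse strand of chromosome 6 at 113374628 to 113385754 in NCBIM37 and has 4 annotated transcripts, the longest of 1720 bases. RefSeq gives it more than 1 start, and the 250 bases before each of 2 starts are printed 5′ to 3′ because a table summed per gene does not tell which start made the RNA. The sequences come from the RefSeq promoter table (GRCm38.p6), and each matched NCBIM37 exactly once, the upstream start at chr6:113385755-113386004 and the inner start at chr6:113384759-113385008, both on the reverse strand. Capitals mark matches to TTNNGNAA, a loose form of the motif of C/EBP factors, which are regulators of adipocyte genes.
Cidec, upstream start: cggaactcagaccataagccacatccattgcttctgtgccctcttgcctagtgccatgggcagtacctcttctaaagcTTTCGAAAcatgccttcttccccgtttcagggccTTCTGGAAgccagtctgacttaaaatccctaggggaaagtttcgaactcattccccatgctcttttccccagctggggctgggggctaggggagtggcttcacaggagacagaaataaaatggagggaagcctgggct
Cidec, inner start: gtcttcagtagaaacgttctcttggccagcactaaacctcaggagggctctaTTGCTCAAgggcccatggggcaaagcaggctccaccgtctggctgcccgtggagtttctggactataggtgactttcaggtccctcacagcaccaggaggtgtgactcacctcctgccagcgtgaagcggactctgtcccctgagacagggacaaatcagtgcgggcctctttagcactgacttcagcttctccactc
The upstream window held the pattern at -172, where it reads on both strands, and at -138, and the inner window at -198 on the reverse strand, counted from the RefSeq start. The pattern is common: 36.8% of 32851 promoter windows of 250 bases held it on either strand. AGGTCA, the half-site of nuclear receptors (in 14.0% of the windows), CCAAT (33.8%) and TGACGTCA, the cAMP response element (1.55%), were searched on both strands and are not in either Cidec window. A match here is a description of letters and says nothing of binding.

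Cideb was the scarce member, measured well only in brown fat. Its level was 7.04, 10.7 and 5.84 FPKM in BAT, which is about 79.4, 226 and 86.3 reads. In eWAT it was 0.174, 0.489 and 0.236 FPKM, about 2.84, 2.22 and 1.11 reads, and in all 3 iWAT libraries it was listed at 0. At the depth of iWAT, 3 reads would have given 0.633, 0.848 and 1.01 FPKM. Each eWAT value also lay under the level of 3 reads in its own library (0.184, 0.661 and 0.640 FPKM). For eWAT 1 this rests on the least sharp depth estimate. At the highest depth that other settings gave it, 33000000 reads, its value would lie above 3 reads. A difference in Cideb between iWAT and eWAT was not detectable at this depth, although the listed values do not overlap. The BAT mean was 7.87 ± 2.54 FPKM (SD, n = 3), and all BAT values lay above all white ones. Within BAT, Cideb ranked between 3934 and 5328 among all genes, far down from Cidea and Cidec.

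Cideb entered the model only through its BAT values, and a gene that does so had to differ. With that limit, it was higher in BAT than in iWAT by 3.11 ± 0.23 (log2, SE; adjusted p = 9.73e-06) and than in eWAT by 2.74 ± 0.23 (adjusted p = 1.76e-05). Between iWAT and eWAT the difference was -0.37 ± 0.23 (95% interval -0.88 to 0.14; adjusted p = 0.286). These sizes hang on the added 1 FPKM: with a pseudocount of 0.1 they were 6.27, 4.35 and -1.92. Markers of other cells that make Cideb were read beside it. The 8 liver markers summed to 63.2 to 259 FPKM in BAT, 971 to 1789 FPKM in iWAT and 2253 to 2904 FPKM in eWAT, mostly from Cyp2e1, an enzyme that adipocytes also make, at 55.3 to 254 FPKM in BAT. Ttr and Fgb, for a carrier protein and a fibrinogen chain of plasma, were listed at 0 in all 9 libraries, and Alb (albumin) was 0 to 0.0260 FPKM in BAT against 1.79 to 11.7 in white fat. Apoa2, an apolipoprotein, was the liver marker higher in BAT, at 4.88 to 7.25 FPKM against 0 to 4.05 in white fat. Of 5 intestinal markers the summed level was 0.799 to 2.12 FPKM in BAT, at most 0.479 in iWAT and 1.08 to 2.49 in eWAT. The part of these markers in the Cideb difference was not tested.

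The Cideb gene (ENSMUSG00000022219.8) lies on the reverse strand of chromosome 14 at 56372882 to 56377295 in NCBIM37, has 3 transcripts and overlaps its neighbour 2610027L16Rik by 20 bases at its end. Its RefSeq promoter (GRCm38.p6 table) is printed for comparison with Cidec, as 216 bases that matched NCBIM37 once at chr14:56377296-56377511 on the reverse strand, without the 34 bases next to the RefSeq start, which GENCODE counts as transcribed. Capitals mark TATAAA, the TATA box letters.
Cideb: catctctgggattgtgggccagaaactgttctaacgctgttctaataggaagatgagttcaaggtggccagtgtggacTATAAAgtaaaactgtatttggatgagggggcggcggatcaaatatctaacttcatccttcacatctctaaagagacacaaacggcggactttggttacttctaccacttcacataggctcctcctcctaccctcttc
TATAAA stood at -172 from the RefSeq start, and 12.4% of the 250-base windows held these letters on either strand. The other motifs searched in the Cidec windows, the loose C/EBP pattern included, are not in this one. G and C made up 45.8% of it, against 52.8% in the upstream and 56.8% in the inner Cidec window.

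Set side by side, the members traded places between brown and white fat. Summed FPKM of the 3 was 5082 ± 380 in BAT, 1146 ± 361 in iWAT and 2300 ± 318 in eWAT (SD, n = 3 each). Cidea made up 88.0%, 84.4% and 87.9% of that sum in the BAT libraries, 6.58%, 10.0% and 1.86% in iWAT, and 0.396%, 0.260% and 0.198% in eWAT. Cidec made up the rest almost alone, with 11.8% to 15.4% in BAT, 90.0% to 98.1% in iWAT and 99.6% to 99.8% in eWAT. Even where Cidec was lowest, in BAT, it stayed at 549 FPKM or more, so BAT carried both transcripts at high level and white fat mainly one.

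**Figure D3:**
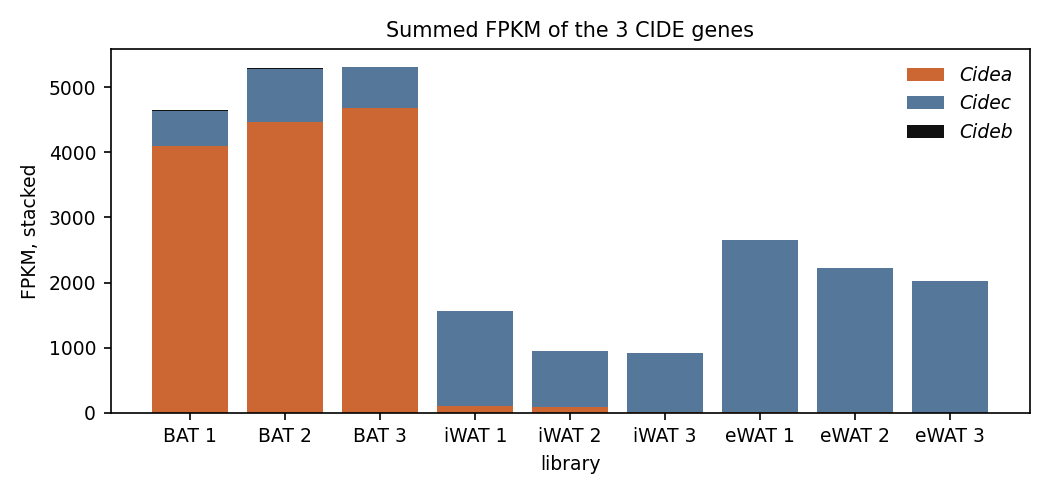
Summed level of the 3 CIDE genes in FPKM in each library, stacked by gene. The BAT bars are mostly Cidea, the iWAT and eWAT bars mostly Cidec, and Cideb is too low to be seen.

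The log2 ratio of Cidea to Cidec, each with 1 FPKM added, was 2.89, 2.45 and 2.88 in BAT, -3.81, -3.15 and -5.64 in iWAT, and -7.84, -8.36 and -8.66 in eWAT. The depots stood apart without overlap, with means of 2.74 ± 0.25, -4.20 ± 1.29 and -8.29 ± 0.41 (SD, n = 3 each). An exact permutation test of the F statistic over 1680 assignments of the libraries gave p = 0.00357, the smallest it can give. An exact permutation of depots within replicate numbers gave p = 0.0278, again the smallest that arrangement allows. The ratio of Cideb to Cidec was -6.25 ± 0.25 in BAT, -10.03 ± 0.42 in iWAT and -10.78 ± 0.31 in eWAT. Its iWAT values are set by Cidec and the added 1 FPKM alone, because Cideb is listed at 0 there. The exact permutation p of this ratio was 0.00357, and 0.0107 with a pseudocount of 0.1. It says nothing of Cideb between the white depots. Cideb was measured well only in BAT, so this p adds no support for BAT against white fat either. The Cidea and Cideb ratio tests are 2 related exact permutation tests on the same libraries, and Benjamini-Hochberg adjustment over both leaves p = 0.00357. Across the 9 libraries, log2 levels of Cidea and Cideb had r = 0.882, Cidea and Cidec r = -0.842, and Cideb and Cidec r = -0.648, a description of 9 points in 3 depots. In both r values with Cideb, its white values lie at or near the floor.

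The other genes of the droplet were read from 7 lists covering coat proteins, partners of CIDE proteins, droplet assembly, lipolysis, transcription factors linked to CIDE genes, relatives with a CIDE-N domain, and VLDL assembly. Of 55 listed genes, 48 were tested. In BAT against iWAT 29 were higher and 4 lower, with a median difference of 1.04 beside 0.23 over all tested genes. In BAT against eWAT 17 were higher and 5 lower, with a median of 0.45 beside -0.02. Between the white depots 1 was called, lower in iWAT, with a median of -0.42 beside -0.18; with the replicate number as a block this count was 3, without iWAT 1 it was 22, and without any other single library it was 0. Of all tested genes, 34.5% were called higher and 22.9% lower in BAT than in iWAT, and 20.2% higher and 13.5% lower than in eWAT. Between the white depots 1.74% were called. The counts of each list below are to be read against these shares, and some lie near or under them. Adipoq, for adiponectin, differed between iWAT 1, 2 and 3, at 2169, 456 and 771 FPKM. The part of adipocyte content and of epithelial and muscle RNA in these counts was not tested.

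**Figure D4:**
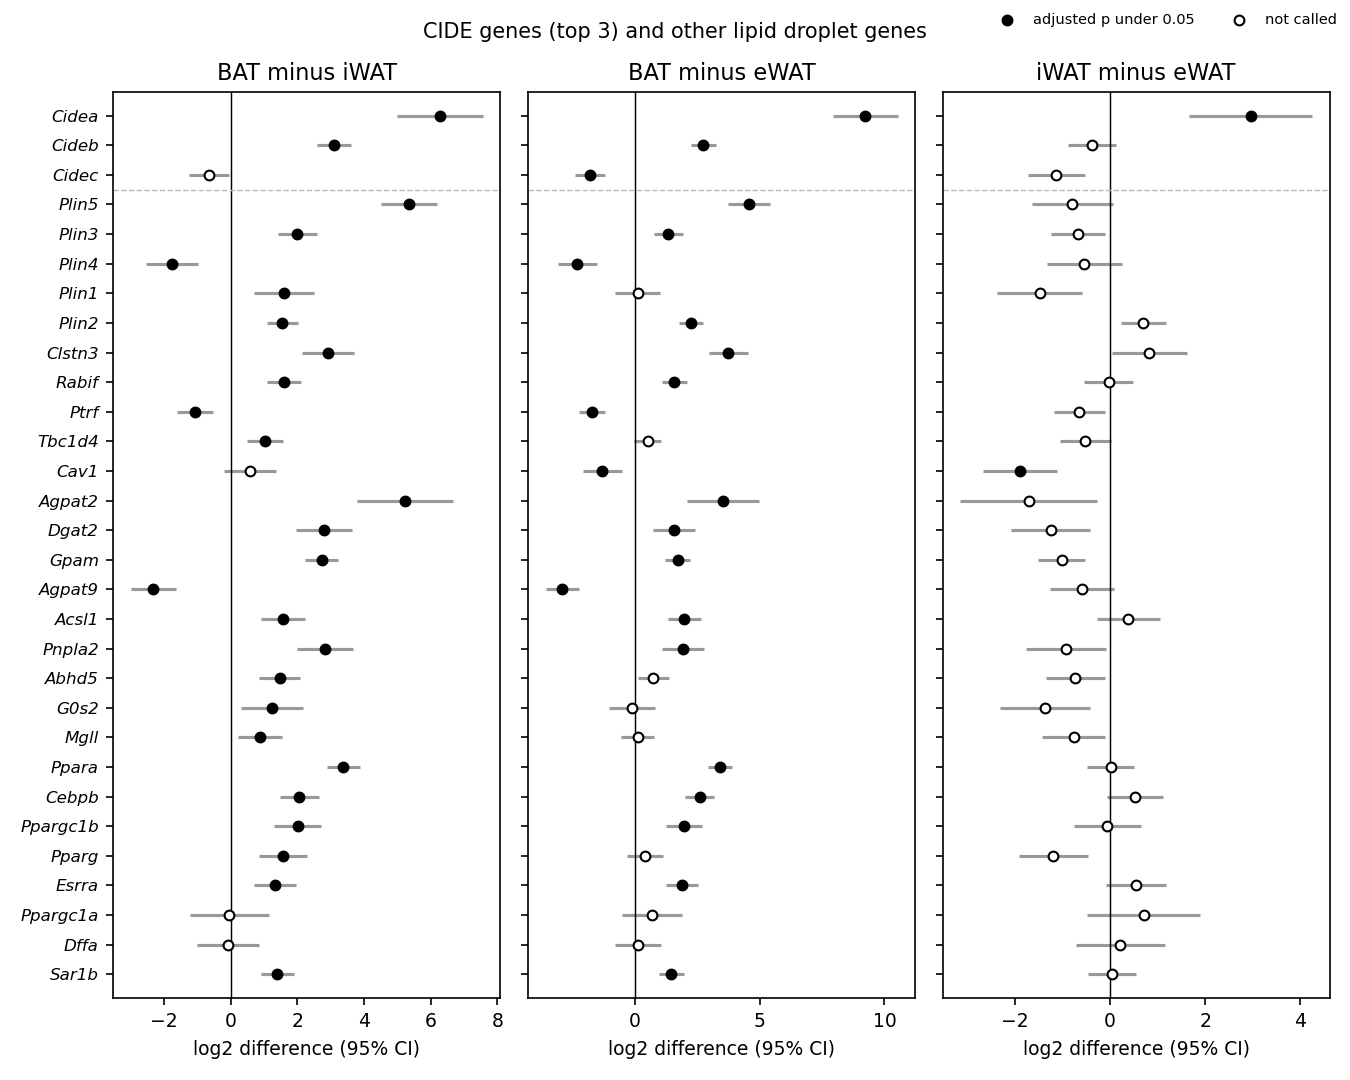
Difference in log2(FPKM + 1) between depots for the 3 CIDE genes (top) and the named droplet genes, with 95% intervals from the limma model; filled symbols are called at an adjusted p under 0.05 and open symbols are not. Cidea and Cideb lie to the right of 0 and Cidec to the left in both comparisons with BAT, most named droplet genes lie to the right there, and between iWAT and eWAT Cidea and Cav1 are the filled symbols.

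Among 8 tested coat proteins, 5 were higher and 1 lower in BAT than in iWAT, and 3 higher and 1 lower than in eWAT. Plin5, the perilipin of oxidative tissue that ties droplets to mitochondria, was 119, 120 and 112 FPKM in BAT, 4.94, 1.16 and 0.880 in iWAT and 5.00, 3.77 and 3.37 in eWAT. It was higher in BAT by 5.35 than in iWAT (adjusted p = 8.14e-06) and by 4.56 than in eWAT (adjusted p = 1.81e-05), and iWAT minus eWAT was -0.79 (adjusted p = 0.213), with the sign opposite to that of Cidea. Plin4, a perilipin of white fat, had the sign of Cidec: 15.8, 11.6 and 16.8 FPKM in BAT, 82.0, 29.4 and 58.3 in iWAT and 85.6, 59.0 and 87.5 in eWAT (-1.77 against iWAT, -2.31 against eWAT). Plin1, which guards the droplet of adipocytes against lipases and is a known partner of Cidec, was 420, 459 and 407 FPKM in BAT, 302, 89.1 and 105 in iWAT and 495, 312 and 401 in eWAT. Its BAT and eWAT libraries overlapped, and the difference of 0.11 was not called (adjusted p = 0.845). Plin2, a coat protein of many cell types, rose in BAT over iWAT by 1.55 and over eWAT by 2.25, and Plin3 by 2.0 and 1.33.

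Of 7 tested partners of CIDE proteins, 4 were higher and 1 lower in BAT than in iWAT, and 2 higher and 2 lower than in eWAT. Clstn3, whose adipose form acts at droplets against CIDE proteins, was 141, 106 and 130 FPKM in BAT, 12.9, 20.5 and 14.3 in iWAT and 4.39, 14.4 and 8.89 in eWAT. It was higher in BAT by 2.92 and 3.75, and iWAT and eWAT overlapped. The table sums reads per gene, so the adipose form is not separated from others. Rabif, a small exchange factor for Rab proteins, was higher in BAT by 1.60 and 1.58. Of the caveolar genes, Ptrf (cavin 1) was lower in BAT, with differences of -1.08 from iWAT and -1.72 from eWAT. Cav1 (caveolin 1) was 205, 218 and 303 FPKM in BAT, 281, 99.5 and 146 in iWAT and 637, 500 and 673 in eWAT. Its BAT libraries overlapped those of iWAT (0.57, adjusted p = 0.183) and were lower than those of eWAT (-1.32, adjusted p = 0.0157). It was the listed gene called between the white depots (iWAT minus eWAT -1.90, adjusted p = 0.0280).

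Among 12 tested genes of droplet assembly, 8 were higher and 1 lower in BAT than in iWAT, and 5 higher and 1 lower than in eWAT. Agpat2, an acyltransferase of triglyceride synthesis, was 940, 640 and 684 FPKM in BAT, 67.8, 15.6 and 5.90 in iWAT and 64.8, 49.8 and 81.3 in eWAT. Dgat2, which completes triglyceride, was higher in BAT by 2.81 and 1.56, and Gpam, which acts at the first step of its synthesis, by 2.73 and 1.71. Agpat9, a further acyltransferase of the first step, was 3.89, 7.64 and 10.1 FPKM in BAT, 46.3, 31.9 and 36.8 in iWAT and 59.7, 61.5 and 52.4 in eWAT. Gpam and Agpat9, which act at the same step, thus differed in opposite directions between brown and white fat. No gene of this list was called between iWAT and eWAT.

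Of 6 tested lipolysis genes, 4 were called higher in BAT than in iWAT and 1 was called higher than in eWAT. That gene was Pnpla2, the adipose triglyceride lipase, at 813, 803 and 680 FPKM in BAT, 217, 82.1 and 66.5 in iWAT and 189, 185 and 236 in eWAT (2.84 and 1.91). Its inhibitor G0s2 was higher in BAT than in iWAT by 1.24 (adjusted p = 0.0291), while the difference from eWAT was -0.12 (adjusted p = 0.840).

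Of 12 tested transcription factors and coactivators, 7 were higher and 1 lower in BAT than in iWAT, and 5 higher and 1 lower than in eWAT. Ppara, a receptor that drives fatty acid oxidation genes, was 18.6, 18.5 and 18.0 FPKM in BAT, 0.703, 1.26 and 0.649 in iWAT and 0.612, 1.21 and 0.739 in eWAT. Cebpb, a C/EBP factor, was higher in BAT by 2.05 and 2.59, and Esrra, an orphan receptor of mitochondrial genes, by 1.32 and 1.87. Pparg, the master regulator of adipocytes and a known activator of Cidec, was higher in BAT than in iWAT by 1.58 (adjusted p = 0.00276), and its difference from eWAT was 0.39 (adjusted p = 0.366). Cidec was called lower in BAT than in eWAT and was not called between BAT and iWAT. Ppargc1a, the coactivator of thermogenic genes and of Cidea, was not called in BAT against iWAT (-0.04) or eWAT (0.67). The part of these factors in the differences of the CIDE genes was not tested.

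The relatives of the CIDE genes were not called. Dffa, the inhibitor of the DNA fragmentation nuclease whose CIDE-N domain gave the family its name, differed by -0.09 between BAT and iWAT and by 0.13 between BAT and eWAT, and Dffb, the nuclease, stayed between 0 and 0.472 FPKM in the 9 libraries and was not tested. Of the VLDL assembly genes, in which Cideb acts in liver, 2 of 4 were tested. Sar1b, a small GTPase of vesicle transport, was higher in BAT by 1.40 and 1.44. Mttp, which loads lipid onto apolipoprotein B, was not called (0.39 and 0.28), and Apob and Tm6sf2 were listed at 0 in all BAT libraries.

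By likeness across the 9 libraries, measured as Pearson r of log2(FPKM + 1) among 5450 genes with a mean of 5 FPKM or more and no value of 0, the 5 genes nearest to Cidea were Cox8b (0.993), Tuba8 (0.985), Kcnk3 (0.983), Otop1 (0.980) and Nrtn (0.975). Cox8b and Kcnk3 belong to the brown marker list. Tuba8, a tubulin, was 3.89, 3.78 and 0.287 FPKM in iWAT and 0.363 to 0.597 in eWAT. Nearest to Cideb were Mfn2 (0.997), Slc4a4 (0.995), Glul (0.991), Fh1 (0.990) and Mcart1 (0.990), which were all highest in BAT 2, as Cideb was. The white values of Cideb were 0 or, at the estimated depth, under 3 reads. Its r values thus rest on BAT against a floor and on the order of the BAT libraries. Nearest to Cidec were Mpp1 (0.989), Gzf1 (0.987), Cpne8 (0.983), Rhbdl1 (0.982) and Npdc1 (0.980), with Rhbdl1, a rhomboid protease relative, rising from 6.25 to 10.1 FPKM in BAT over 16.3 to 37.9 in iWAT to 73.4 to 117 in eWAT. The 9 points fall in 3 depots and are shared by all genes, and the values are given without a test.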

How the data were processed

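Ribosome-bound RNA of 9 libraries was sequenced single-end on a NextSeq 500, per the labels' protocols. The authors deposited FPKM per gene in 1 table; the submitters' processing notes name TopHat, Cufflinks and build mm9, while versions, annotation and strand setting are not given in the sources used here. FPKM is scaled to library size, so a few abundant genes can shift all others. From the table, log2(FPKM + 1) was fitted with limma 3.58.1 (R 4.3.3; empirical Bayes with trend, 6 residual degrees of freedom) over all genes with 1 FPKM or more in 3 libraries, and p-values were adjusted by Benjamini-Hochberg over all of them; the fit was tested on simulated data. The 22996 lines hold 259 symbols more than once, of which the line of highest mean was kept. Read numbers are estimates from the spacing of low FPKM values, with the depth chosen to bring these values near whole reads. Of the values used, 44.3% to 63.5% fell near whole reads, and a part of evenly spread values would do so too. Floors cover counting error only. Tables were handled in Python 3.11.15.

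The members and gene lists were chosen with earlier results of these data known. Named genes were the 3 members, up to 4 called genes of largest difference in each droplet list and comparison, a set of standing names (Plin1, Plin2, Plin4, Plin5, Pnpla2, G0s2, Dgat2, Pparg, Ppargc1a, Dffa, Dffb), and the 5 genes most like each member. Libraries were grouped by title. Same-numbered white libraries deviated together for numbers 1 and 2 (r = 0.634 and 0.534, against -0.576 to 0.228 for different numbers). For number 3 the r was 0.165, under the 0.228 of iWAT 2 with eWAT 3. These r values share libraries and are not independent. Whether the numbers pair iWAT with eWAT was not tested, and the labels do not state it. Between BAT and the white depots, same numbers gave -0.388 to 0.121. Alternatives were other scalings, pseudocounts, filters, weights, fits and left-out libraries.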

Additional observations from a re-analysis of the deposited data

How the results depend on the processing

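Over 102 alternative values for the 6 differences of Cidea and Cidec, 87 kept direction and side of the threshold, 10 lost a call and 5 gained one. No sign turned, but the depots do not overlap in Cidea or Cidec. A sign could therefore turn only under median-ratio scaling or quantile normalization, and the other alternatives are no check of it. The 48 values for Cideb say nothing of stability, since it was tested through its BAT values alone. All 10 losses concern Cidea in iWAT against eWAT: 2.96 with each pair of depots fitted alone (adjusted p = 0.159) or with no filter (0.0982), 3.13 with a pseudocount of 0.1 (0.0525), and leaving out 1 library gave 2.52 to 3.77 (adjusted p 0.00378 to 0.146). Cidec in BAT against iWAT was -0.79 after median-ratio scaling, -1.35 after quantile normalization and -0.82 to -0.42 with 1 library left out. Cidec in iWAT against eWAT was -1.17 with array weights and -1.37 to -0.98 with 1 library left out. With the replicate block, Cidea in iWAT against eWAT had an adjusted p of 0.0183, Cidec there 0.0661 and in BAT against iWAT 0.0623, and the block changed no call of the 3 genes; the Cidea to Cidec ratio had p = 0.0278 under it, by exact permutation within numbers.

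Droplet genes called between iWAT and eWAT numbered 1, against 19 with array weights, 0 with pairs fitted alone or no filter, 3 with the replicate block and 0 to 22 with 1 library left out. All genes called between iWAT and eWAT numbered 180, against 1970 with array weights, 28 with pairs fitted alone, 79 with a mean filter of 5 FPKM, 116 after median-ratio scaling, 93 with no filter, 90 with a pseudocount of 0.1 and 50 to 3321 with 1 library left out, the highest without iWAT 1. Genes called between BAT and eWAT numbered 3492, against 6625 with array weights and 2244 with the mean filter, and between BAT and iWAT 5961, against 3783 with the mean filter. After quantile normalization 7 droplet genes in place of 4 were higher in iWAT than in BAT, and with array weights 9 in place of 5 were higher in eWAT than in BAT. The filter at a mean of 5 FPKM drops Cideb and gives it no value, and taking the line of lowest mean gives none because each member has 1 line. Depth limits Cideb in both white depots, and its size in BAT depends on the pseudocount.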

Other observations

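Marker lists tied to cells outside the droplet comparison showed the levels around the CIDE genes. Macrophage markers summed to 0.822 to 1.21 FPKM in the BAT libraries, to 3.37 to 8.91 in those of iWAT and to 2.33 to 7.26 in those of eWAT. Adipoq, the adipocyte hormone adiponectin, was 2169, 456 and 771 FPKM in iWAT 1, 2 and 3.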
